A study of Cucumis melo with 4 samples.

Results

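The set described here holds 79 melon (Cucumis melo) unigenes, which are transcripts assembled without a genome, whose annotation names a cyclin, a cyclin-dependent kinase (CDK), an E2F or retinoblastoma protein, or another cell division protein. They were chosen from the 11737 unigenes that the deposited expression files pair with a melon coding sequence (CDS), out of 76260 unigenes in all, by words in the annotation: "cyclin-", "cyclin dependent", "E2F", "cell division", "mitotic", "anaphase-promoting", "retinoblastoma" or "aurora". No expression value entered the choice. The 79 members carry 79 different CDS. The words also brought in Unigene42948, annotated as sieve element occlusion d, through the letters of its protein identifier, and Unigene31773, annotated as retinoblastoma-binding protein 5.

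RNA-seq was run on 4 libraries, 1 for each sex type: monoecious (labelled AAGG, plants with male and female flowers), gynoecious (AAgg, female flowers), hermaphrodite (aaGG, bisexual flowers) and andromonoecious (aagg, male and bisexual flowers). Each library is a bulk of equal amounts of RNA from recombinant inbred lines of that sex type, and each line's RNA came from young leaves, axillary buds, small flower buds and flower buds close to opening, so no organ can be read apart. The headers of other deposited tables give aaGG to the andromonoecious and aagg to the hermaphrodite bulk, the reverse of the sample labels, so any grouping by the g locus below follows the labels only. Among the AA bulks, the GG bulk has male flowers and the gg bulk has none. The headers keep that order among the aa bulks, and the sample labels reverse it. Grouped by the headers, the GG bulks are those with male flowers. The run names place the hermaphrodite library on another flow cell than the other libraries, and its difference from them cannot be told apart from the flow cell. Library totals ran from 25.51 M (andromonoecious) to 27.04 M reads (hermaphrodite). With 1 library per sex type, a difference between sex types has no replicate check, and the bulk RNA cannot tell fewer dividing cells from less RNA per cell.

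In plants, D-type cyclins bind CDKs in response to growth signals and lead to phosphorylation of the retinoblastoma-related protein, which releases E2F transcription factors to drive genes of DNA replication. A- and B-type cyclins with A- and B-type CDKs carry cells through DNA synthesis and mitosis, KRP proteins (CDK inhibitors) hold these kinases back, and the anaphase-promoting complex, a ubiquitin ligase, marks mitotic cyclins for destruction. Growing buds hold many dividing cells, and expanded leaf tissue holds few.

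The deposited files contradict one another on which unigene carries which CDS, so every protein name below is the annotation listed beside a unigene and not an identity that could be checked. In the authors' deposited table of sequence matches between unigenes and melon CDS, 817 of 11804 neighbouring pairs of rows listed different CDS with the same first and last CDS position, the same percent identity and the same length. The longest such run held 17 rows with 17 different CDS, each listed with 100% identity over 136 nt at CDS positions 4260 to 4395. Among the members, Unigene48347 (cyclin-H1-1) and Unigene48348 (CDK regulatory subunit 2, a small protein that binds CDKs) were both listed with 99.75% identity over 402 nt at CDS positions 1846 to 2247. Unigene12615 (cyclin-U1-1) shared with Unigene12617 and Unigene12618 (both cyclin-T1-5) a match of 87% over 100 nt at positions 48 to 147. In all, 10 of the 79 members had such a match listed for another CDS within 10 rows.

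The pairing also differed between files. Of 233 unigenes that the authors' deposited gynoecious and monoecious table shared with the named unigenes of the library files, 16 (6.87%) carried the same CDS in both. None of the 13 member CDS in that table stood beside the member unigene (0 of 13). Unigene408, cyclin-A3-2 in the library files, stood there under another CDS with a listed log2 ratio of 2.02, and Unigene70952, annotated as cell division cycle protein 27 homolog B, stood under another with -3.31. The repeated matches above lie in the match table, which gives the same CDS as the library files for all 79 members. The low levels described next also concern the pairing in the library files. The pairing in the gynoecious and monoecious table was not checked in these ways, so which source is right was not settled. The results below use the library files only because the members were chosen in them.

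Annotations of abundant leaf and housekeeping proteins stood beside low levels. Unigenes annotated as chlorophyll a-b binding proteins, the light-harvesting proteins of leaves, had a median of 1.75 RPKM (reads scaled to transcript length and library size) over the mean of the 4 libraries, with a highest of 15.8 among 10 unigenes. Elongation factor 1 annotations, translation proteins made in every cell, had a median of 0.911 RPKM among 6 unigenes, and tubulin annotations 1.75 RPKM among 10, against 2.64 RPKM over all named unigenes. Of the members, 5 of the 9 unigenes annotated as anaphase-promoting complex exceeded 300 RPKM, a level that 103 of the 11737 named unigenes passed. That bound was chosen after the values were seen. The tissue labels could therefore not be checked by markers: the green leaf list held between 0.0167% and 0.0227% of reads, floral organ genes between 0.0164% and 0.0277%, anther and pollen genes between 0.00139% and 0.0026%, and meristem genes between 0.0322% and 0.0491%.

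**Figure D1:**
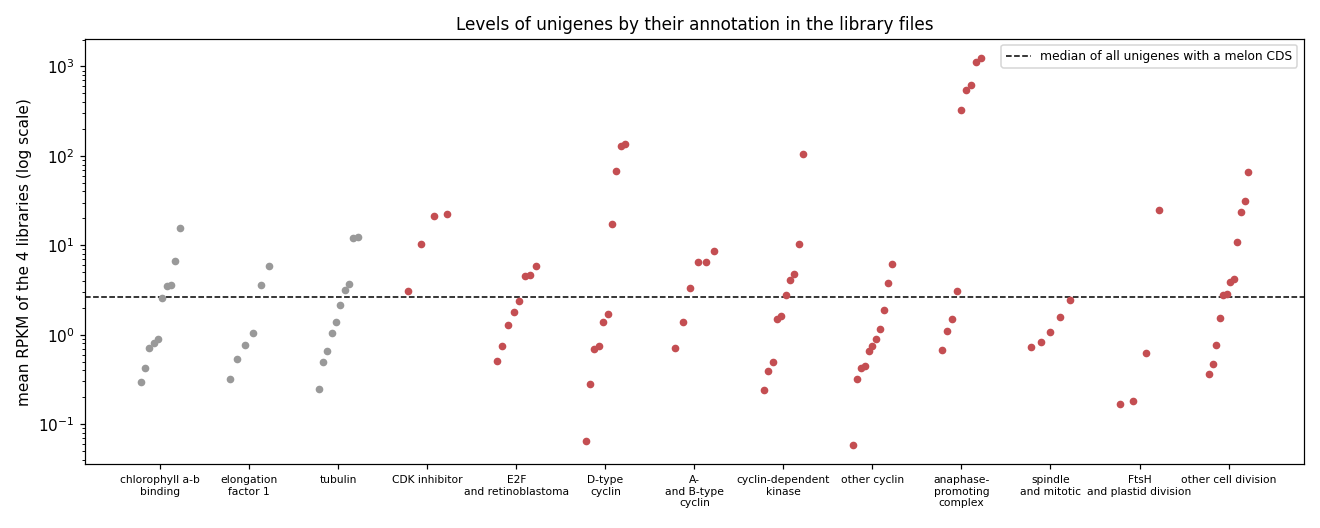
Mean RPKM of the 4 libraries (log axis) for unigenes grouped by their annotation in the library files, 1 point a unigene; grey points are reference families, red points are the members by role, and the dashed line is the median of all named unigenes. The chlorophyll a-b binding points stay at or below 15.8 RPKM, while 5 anaphase-promoting complex points lie above 300 RPKM.

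Most members were low. Their median was 1.91 RPKM, against 2.64 over all named unigenes and 1.57 over all unigenes, and 41 of the 79 had at least 100 reads in the 4 libraries together. The listed match reached 95% identity over at least 100 nt for 40 members and stayed under 90% identity for 32. Of all 79, 10 had 0 reads in at least 1 library. The 5 high anaphase-promoting complex unigenes took between 77% (hermaphrodite) and 86.3% (monoecious) of all member reads. Over all 79 members the libraries summed to 94586 reads in the monoecious, 114018 in the gynoecious, 82944 in the hermaphrodite and 114713 in the andromonoecious library, with the hermaphrodite lowest. Without those 5, left out by a bound set after the values were seen, the members summed to 12917 reads in the monoecious, 25161 in the gynoecious, 19087 in the hermaphrodite and 20019 in the andromonoecious library, with the monoecious lowest. Unigene22025 and Unigene30790, both annotated as D-type cyclins, made up 4366, 14172, 9148 and 9636 of these in the same order. The rest came to 8551, 10989, 9939 and 10383 reads, a narrower range with the monoecious again lowest. All these sums are recovered reads, not scaled for library size or composition. The composition factor ran from 0.928 in the andromonoecious to 1.061 in the hermaphrodite library. The order of libraries with close sums therefore depends on scaling.

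Among the 10 D-type cyclin annotations, 5 had at least 100 reads, and 4 of these were lowest in the monoecious library. That library was the lowest for 29.2% of all unigenes with as many reads. For 1 of the 4, Unigene30265 (cyclin-D1-1), the gap was small, with 20 reads in the monoecious and 21 in the andromonoecious library. Unigene22025, annotated as cyclin-D3-3, had 41.5 RPKM in the monoecious, 252 in the gynoecious, 104 in the hermaphrodite and 149 in the andromonoecious library. In reads scaled by TMM, which adjusts for library size and composition, the gynoecious library was 5.63-fold above the monoecious (95% exact binomial interval 5.31 to 5.97, which covers counting error only, as do all intervals of folds here). Unigene24462, annotated as cyclin-D5-1, had 4.5, 29.8, 20.3 and 14.4 RPKM in the same order of libraries, and its gynoecious level was 6.13-fold the monoecious (4.51 to 8.49). The second cyclin-D5-1 annotation, Unigene30790, had 78.1, 161, 144 and 134 RPKM, again lowest in the monoecious library, with a gynoecious fold of 1.91 (1.83 to 2). Its listed match had 83.57% identity. Unigene24440, annotated as a putative cyclin-D6-1, departed from this order, with 81, 83.5, 37.3 and 70.7 RPKM. Its low value was in the hermaphrodite library, 2.16-fold below the andromonoecious (1.93 to 2.44). At the low end, Unigene62350 (cyclin-D3-2) and Unigene63078 (a second cyclin-D3-3) had reads in the andromonoecious library only, 2 and 6 of them, too few for a fold.

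Of the 4 A- and B-type cyclin annotations (cyclins of DNA synthesis and mitosis) with at least 100 reads, 3 were lowest in the monoecious library (background 29.2% of all unigenes). Unigene408 (cyclin-A3-2) had 3.74 RPKM in the monoecious, 15.2 in the gynoecious, 8.76 in the hermaphrodite and 6.52 in the andromonoecious library. The gynoecious fold over the monoecious was 3.77 (3.25 to 4.38). Unigene405 (cyclin-A2-1) was highest in the hermaphrodite library, with 16, 26, 64 and 29 reads in the same order. Unigene43802, annotated as the mitotic cyclin S13-6, had 3.17, 6.13, 8.2 and 8.55 RPKM, lowest in the monoecious library. Unigene3824 (putative cyclin-B3-1) went the other way, with 128 reads in the monoecious and 75 in the gynoecious library.

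Of the 4 CDK annotations with at least 100 reads, all were lowest in the monoecious library (background 29.2% of all unigenes), though 1 of them only slightly. Unigene44845, annotated as CDKB2-2, a plant kinase of the G2 to M step, had 18.8 RPKM in the monoecious, 145 in the gynoecious, 130 in the hermaphrodite and 126 in the andromonoecious library. The folds over the monoecious library were 7.15 (5.85 to 8.81), 6.36 (5.2 to 7.84) and 7 (5.71 to 8.64), and the other libraries lay close to one another. Unigene24046 (CDKD-1, of the family that activates other CDKs) had 1.36, 5.67, 4.68 and 7.56 RPKM, with an andromonoecious fold over the monoecious of 5.82 (3.97 to 8.77). Unigene54514 (CDKF-4) had 6.19, 13.8, 11.5 and 9.9 RPKM, lowest in the monoecious library as well. Unigene33081 (CDKE-1) was nearly level, between 3.55 and 4.62 RPKM. The listed match had 100% identity over 220 nt for Unigene44845. It had only 81.13% for Unigene24046, 79.38% for Unigene54514 and 85.32% for Unigene33081.

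All 4 CDK inhibitor annotations name KRP3. Unigene24674 had 11.8, 37.4, 19 and 21.5 RPKM in the monoecious, gynoecious, hermaphrodite and andromonoecious libraries, and Unigene48351 had 4.48, 16.9, 8.95 and 11.2. Unigene48350 was lower, with 1.1, 6.03, 3.46 and 1.82 RPKM. These were lowest in the monoecious and highest in the gynoecious library, by 2.93-fold (2.54 to 3.38), 3.48-fold (2.95 to 4.14) and 5.07-fold (3.63 to 7.22). The remaining KRP3 annotation, Unigene48352, did not share that order: it had 22, 17.8, 16.2 and 28 RPKM. KRP proteins are small, yet all 4 listed matches reached CDS position 1370 or beyond. The match ran over 2197 nt for Unigene48352, 1006 nt for Unigene48351 and 735 nt for Unigene48350. For Unigene24674 it covered 43 nt only, at positions 1846 to 1888. The name is thus in doubt for all 4.

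**Figure D2:**
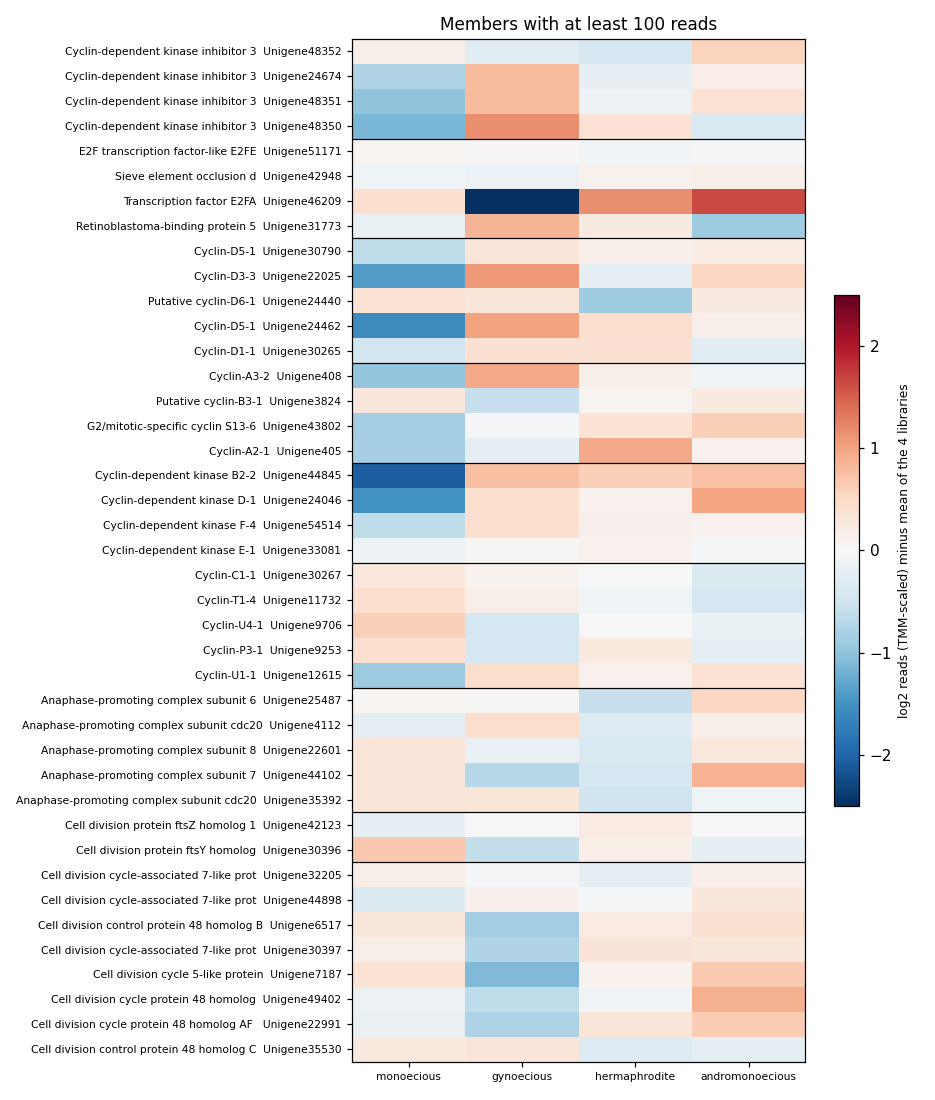
The 41 members with at least 100 reads, grouped by role (black lines) in the 4 libraries; colour is log2 of TMM-scaled reads minus the member's mean over the libraries, red above and blue below. The monoecious column is the lowest for 17 of the 41 members (background 29.2% of all unigenes) and the andromonoecious column for 3 (background 20%).

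The 6 E2F and retinoblastoma-related annotations were low in every library, at 8.04 RPKM or less, and 2 of them had at least 100 reads. Unigene46209, annotated as E2FA, an activator of replication genes, had 58 reads in the monoecious, 4 in the gynoecious, 109 in the hermaphrodite and 128 in the andromonoecious library. The gynoecious library stood far below the others, 15.5-fold under the monoecious (5.73 to 58.7). Unigene70086 (E2FB, in plants an activator as well) had 6, 0, 28 and 21 reads in the same order, also lowest in the gynoecious library. Its listed match had 82.61% identity. Unigene13774, annotated as retinoblastoma-related protein, had 40, 2, 1 and 49 reads, so nearly all reads lay in the monoecious and andromonoecious bulks, those that form male flowers. Unigene51171, annotated as E2FE, an atypical E2F that represses the switch to endoreduplication in Arabidopsis, was nearly level between 4.11 and 4.96 RPKM.

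The high anaphase-promoting complex annotations spanned less than 3-fold among libraries, and 4 of the 5 had a listed match under 90% identity. Unigene25487 (subunit 6) had 1200 RPKM in the monoecious, 1280 in the gynoecious, 853 in the hermaphrodite and 1610 in the andromonoecious library, and its listed match had 77.78% identity. Unigene4112, annotated as CDC20, which activates the complex at mitosis, had 896, 1530, 916 and 1090 RPKM with 82.54% identity. Unigene44102 (subunit 7), with 99.84% identity over 611 nt, had 602, 321, 394 and 850 RPKM, and its andromonoecious level was 2.99-fold the gynoecious (2.9 to 3.08). Scaled to library totals, the hermaphrodite over monoecious ratio of Unigene4112 turned from a log2 of -0.10 to 0.03.

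Spindle and checkpoint annotations stayed under 100 reads each, so any order of the libraries rests on few reads. The same holds for Unigene70086 and Unigene13774 above. Unigene12752 (Aurora-3, a mitotic kinase of chromosomes) had 30, 24, 8 and 20 reads in the monoecious, gynoecious, hermaphrodite and andromonoecious libraries, and Unigene15369 (BUB3, of the spindle checkpoint) had 40, 21, 25 and 13. Of the plastid division annotations, Unigene42123 (ftsZ homolog 1, which forms the division ring of chloroplasts) was nearly level between 21 and 30.3 RPKM. Among other cell division names, Unigene32205, annotated as cell division cycle-associated 7-like protein, ran from 59.6 to 70.5 RPKM, and Unigene7187 (CDC5-like, a splicing-linked protein) had 27, 10.5, 24.8 and 32.1 RPKM, lowest in the gynoecious library. Unigene6517, Unigene22991, Unigene30397 and Unigene49402 of that class were also lowest in the gynoecious library. Of the members of that class with at least 100 reads, only Unigene44898 was lowest in the monoecious library. Unigene11732 and Unigene30267 (cyclin-T1-4 and cyclin-C1-1, of transcriptional CDK complexes) were highest in the monoecious and lowest in the andromonoecious library, at 2.38 against 1.28 and 7.02 against 4.35 RPKM. Unigene9253 (cyclin-P3-1) and Unigene9706 (cyclin-U4-1) were highest in the monoecious and lowest in the gynoecious library, at 4.79 against 2.82 and 1.68 against 0.868 RPKM. Of the 5 annotations of other cyclins with at least 100 reads, only Unigene12615 (cyclin-U1-1) was lowest in the monoecious library. The listed match had 84.21% identity for Unigene42123, 88.51% for Unigene7187 and 84.92% for Unigene11732. It had 82.69% for Unigene9253, 82.4% for Unigene9706, 81.76% for Unigene6517, 88.52% for Unigene22991 and 83.33% for Unigene30397.

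Across the 41 members with at least 100 reads, the monoecious library was the lowest for 17 (41.5%), against 29.2% of all 34861 unigenes with as many reads. The andromonoecious library was the lowest for 3 (7.32%), against 20% of all, the gynoecious for 12 (29.3%, against 30.1%) and the hermaphrodite for 9 (22%, against 20.7%). The highest value lay in the monoecious library for 11 members (26.8%, against 24.6% of all), in the gynoecious for 13 (31.7%, against 30.5%), in the hermaphrodite for 5 (12.2%, against 22.2%) and in the andromonoecious for 12 (29.3%, against 22.7%). The spread of a member over the 4 libraries was much like that of other unigenes: the median fold of highest over lowest was 2.16 for the members and 2.26 for all, and 14.6% of members and 18.8% of all spanned at least 4-fold.

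Pairs of libraries were compared by the share of members at least 2-fold apart among those with at least 50 reads in the pair, beside the same share over all unigenes. The 6 pairs share libraries, so they are not separate evidence. For gynoecious over monoecious, 12 of 43 members were at least 2-fold higher (background 18.2%) and 6 lower (background 18.4%), with a median log2 ratio of -0.02 against 0.02 for all unigenes. Of the 12 higher members, 4 were CDK, 3 CDK inhibitor and 2 D-type cyclin annotations. For hermaphrodite over monoecious, 8 of 41 were higher (background 11.8%) and 1 lower (background 11.5%), with a median of 0.19 against 0.03. The andromonoecious over monoecious pair had 10 of 44 higher (background 12%) and 1 lower (background 9.95%), with a median of 0.33 against 0.05. In both pairs the members' share higher lay above the background and the share lower below it; no test of that difference was run. Among members with 95% identity over at least 100 nt the shares higher were 33.3% of 21 and 36.4% of 22 members. No background was computed for unigenes matched as well. The hermaphrodite over monoecious median turned to -0.10 among members with at least 200 reads.

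The other pairs were as follows. For hermaphrodite over gynoecious, 6 of 41 members were higher (background 14.1%) and 2 lower (background 13%), and the median was -0.17 against -0.00 for all unigenes. For andromonoecious over gynoecious, 10 of 45 were higher (background 15.6%) and 4 lower (background 12.3%), with a median of 0.03 against -0.03, and 6 of the 10 came from the mixed class of other cell division names. For hermaphrodite over andromonoecious, 1 of 46 was higher (background 9.53%) and 7 lower (background 11.2%), with a median of -0.21 against -0.02. The 3 anaphase-promoting complex annotations among those 7 were the largest role group. The low lower counts rest on few members, and with the minimum set at 10 reads the share lower in hermaphrodite over monoecious was 14.5% of 69 members in place of 2.44%.

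**Figure D3:**
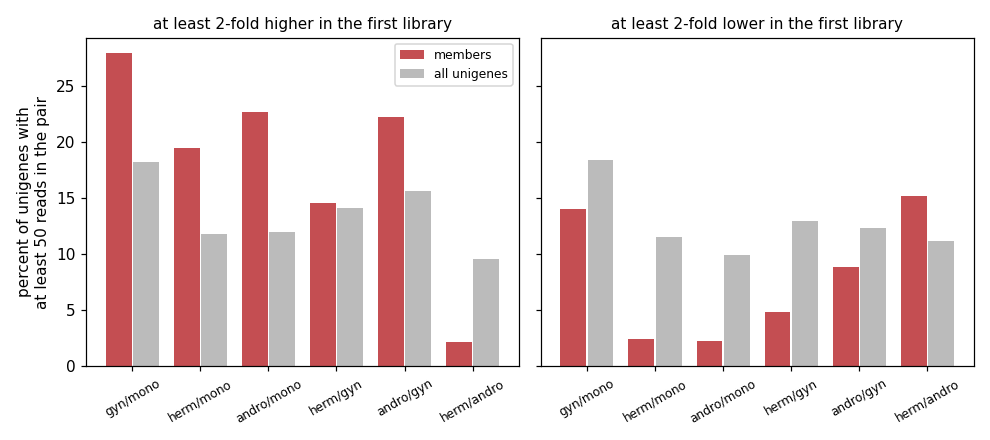
Percent of members (red) and of all unigenes (grey) with at least 50 reads in the pair that were at least 2-fold higher (left) or lower (right) in the first library named. In andromonoecious over monoecious the members reach 22.7% higher and 2.27% lower, against 12% and 9.95% of all unigenes.

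Other genes of DNA replication and mitosis, from a separate word list of 85 unigenes (replication licensing, histones, kinesins and the like), gave values of their own. In gynoecious over monoecious 14 of 53 were at least 2-fold higher (background 18.2%) and 9 lower (background 18.4%), with a median log2 ratio of 0.39. In hermaphrodite over monoecious 8 of 53 were higher (background 11.8%) and 2 lower (background 11.5%), with a median of 0.15. In andromonoecious over monoecious 5 of 51 were higher (background 12%) and 1 lower (background 9.95%), with a median of 0.24. The hermaphrodite over gynoecious pair had 9 of 54 higher (background 14.1%) and 9 lower (background 13%), with a median of -0.08. Andromonoecious over gynoecious had 8 of 54 higher (background 15.6%) and 6 lower (background 12.3%), with a median of -0.21. Hermaphrodite over andromonoecious had 2 of 53 higher (background 9.53%) and 3 lower (background 11.2%), with a median of -0.01. Their annotations rest on the same pairing of unigenes and CDS.

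Splits of 2 libraries against 2 were tested with limma on log2(RPKM + 1) over 49319 unigenes, 62 of them members. The sides were the aa against the AA bulks (the a locus), the labelled gg against the labelled GG bulks, and the bulks with male flowers against those without. Under the genotypes of the other headers, the male flower split is the g locus split. At a Benjamini-Hochberg adjusted p of 0.05, limma called 0 members in each split. Among all unigenes it called 2 higher (0.00406%) and 4 lower (0.00811%) on the aa side, 0 in the g split and 1 (0.00203%) in the male flower split. At an unadjusted p of 0.05, 2 of 62 members passed in the a split (3.23%, background 2.74%), 1 in the g split (1.61%, background 5.07%) and 6 in the male flower split (9.68%, background 8.25%). A 2 against 2 exact permutation test cannot go below a two-sided p of 0.333. The 2 libraries of a side are different sex types and not replicates. The spread behind each SE and p therefore holds differences between sex types as well as library noise.

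The values behind the smallest p of each split were as follows. In the a split, E2FB-annotated Unigene70086 had 0.776 RPKM in the monoecious, 0 in the gynoecious, 3.53 in the hermaphrodite and 2.81 in the andromonoecious library, a difference of 1.64 ± 0.50 (log2 of RPKM + 1, SE) with a limma adjusted p of 1. The aa libraries both lay above the AA libraries. In the g split, Unigene22025 (cyclin-D3-3, values above) was higher by 1.54 ± 0.56 on the labelled gg side, with a limma adjusted p of 0.913. In the male flower split, Unigene13774 (retinoblastoma-related protein) had 2.19, 0.111, 0.0534 and 2.78 RPKM, a difference of 1.68 ± 0.39 with a limma adjusted p of 0.587. The sides did not overlap, and DESeq2 on the recovered reads gave this member an adjusted p of 0.0117 where edgeR gave 0.548. Sides without overlap were seen for 14 of 41 members in the a split (34.1%, background 24.3%), 12 in the g split (29.3%, background 36.2%) and 15 in the male flower split (36.6%, background 39.5%).

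**Figure D4:**
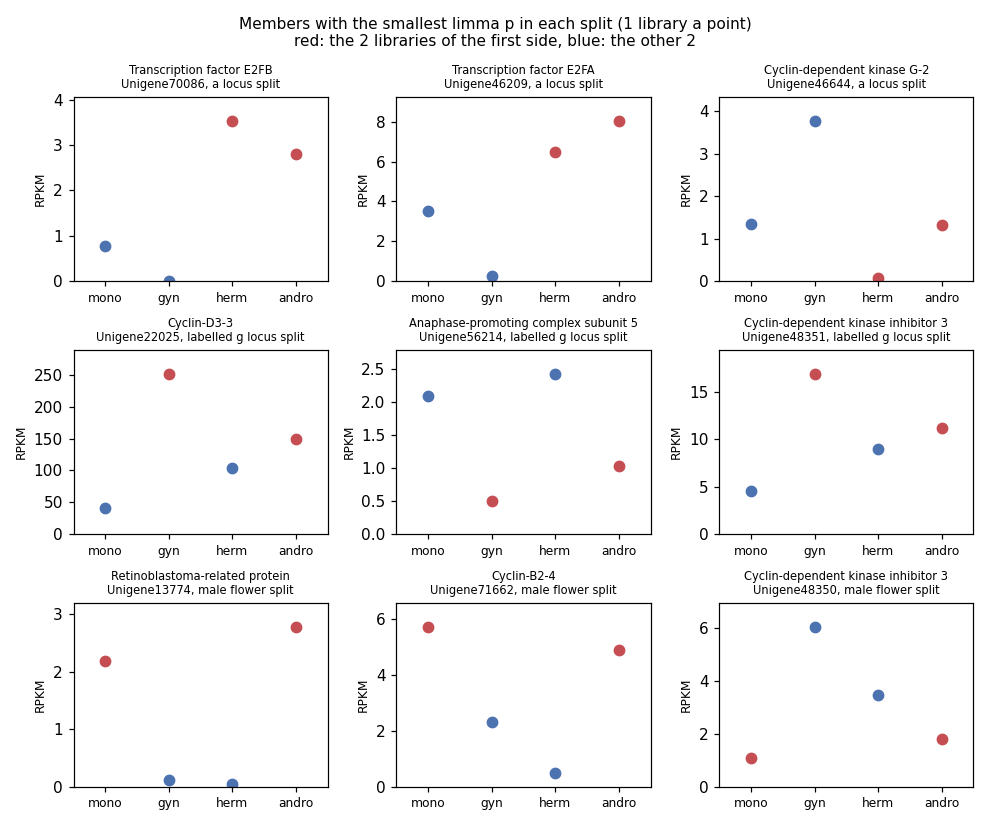
RPKM in each library (linear axis from 0) of the members with the smallest limma p in each split, 1 row of panels a split and 1 point a library; red points are the first side (aa, labelled gg, or with male flowers) and blue points the other, with the sex types shortened to mono, gyn, herm and andro. None of the members shown reached an adjusted p of 0.05 with limma.

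The authors' deposited tables of 4 pairs list 21 of the 79 member CDS, in 26 rows, and 58 are in none. In 21 of the 26 rows the listed log2 ratio equals that of the RPKM columns beside it (within 0.01, with 0 set to 0.001), as it does in 1813 of 2831 rows over all genes, and only such rows are used here. No row has the same 4 read numbers as the member in the library files. For CDKB2-2 the authors' deposited table gave 9, 52, 14 and 21 reads in the monoecious, gynoecious, hermaphrodite and andromonoecious libraries, where the member unigene had 109, 831, 776 and 705. Both sources put the gynoecious above the monoecious library, by a log2 ratio of 2.55 in the authors' deposited table and 2.83 in the library files, but the hermaphrodite and andromonoecious libraries lay near the gynoecious in the library files and below it in the authors' deposited table.

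For other CDS the sources differed. For MAD2, a spindle checkpoint protein, the authors' deposited table gave 85, 747, 185 and 266 reads and a log2 ratio of 3.15 for gynoecious over monoecious. The library files gave 6, 1, 10 and 6 reads, fewer than 10 in this pair, so that this row is not among the 17 counted below. Cyclin-H1-1, partner of the CDK-activating kinase, had 32, 4, 25 and 54 reads in the authors' deposited table and 12, 43, 6 and 21 in the library files. For subunit 6 of the anaphase-promoting complex the authors' deposited table gave 2, 31, 26 and 10 reads, and the library files 31484, 33143, 22854 and 40758, nearly level between gynoecious and monoecious. Of the 17 usable rows whose member had at least 10 reads in the pair, the direction was the same in 7.

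**Figure D5:**
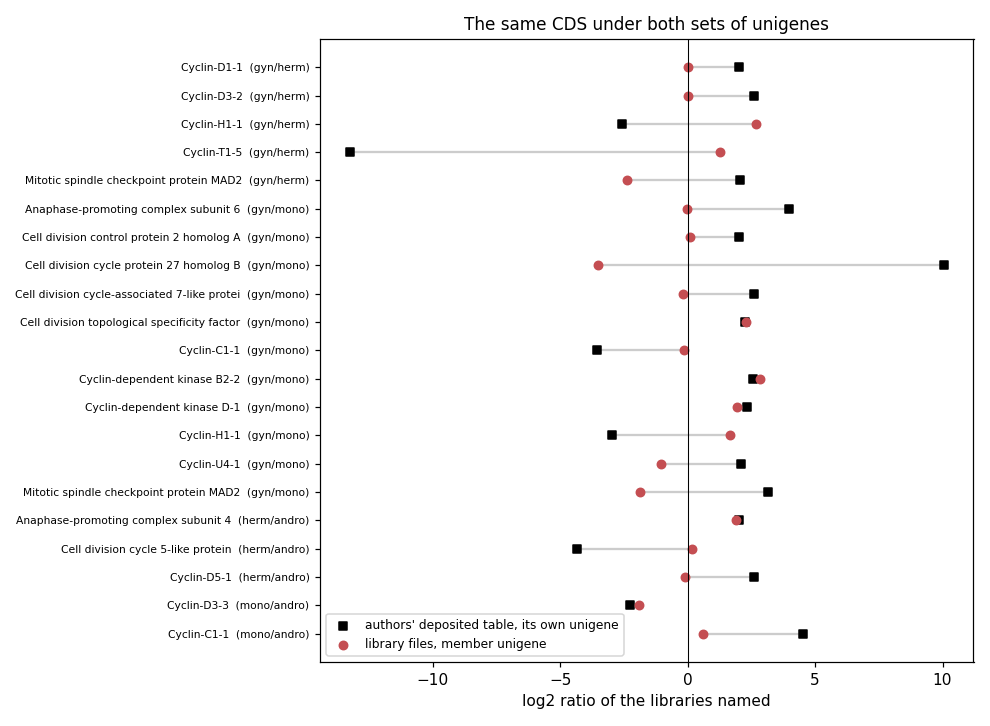
Log2 ratio of the libraries named in brackets for the 21 rows of member CDS where the listed ratio equals its own RPKM columns; black squares are the authors' deposited table and red points the library files. The symbols lie together for CDKB2-2 (2.55 and 2.83) and on opposite sides of 0 for MAD2 (3.15 and -1.87).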

How the data were processed

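Per the labels, RNA of recombinant inbred lines was pooled in equal amounts and sequenced on an Illumina HiSeq; no source used here names the assembler, aligner or build. The library files hold RPKM per unigene, as deposited; the authors' pair tables hold counts, RPKM, log2 ratios and p-values (FDR), and their sequence match table holds percent identity, per the file headers. Another 16 per-sample columns of locus tables were not used.

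Whole reads were recovered from RPKM with the library totals in the file headers, as the shortest length from 200 to 20000 nt that gave whole reads in all 4 libraries (100% of unigenes). The length was at least the last matched position, a bound added after seeing the data. Of 1049 unigenes with deposited counts, 1009 (96.2%) came out with the same length and counts. Pairs were compared by log2 ratios of TMM-scaled reads (prior count 1). Splits were tested with limma 3.58.1 on log2(RPKM + 1) after filterByExpr (minimum count 10); a fold on this scale understates low genes. Alternatives used edgeR 4.0.16 quasi-likelihood and DESeq2 1.42.0 on recovered reads. The scripts were tested on simulated data. Reads without molecular identifiers are not independent molecules, so intervals of folds cover counting error only.

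Roles were given by words of the annotation, first match taken; "cyclin-D" was read as cyclin-D with a digit. The rule for naming members took the 3 with most reads per role, the 10 of widest range, the 3 highest and lowest per pair and the 3 of smallest p per split. It picked 43 members, and not all are described above, so those shown are a further selection. Unigene22601, Unigene46644, Unigene49401 and Unigene70828 are among those left out. Unigene44102, Unigene33081, Unigene30265, Unigene62350, Unigene63078, Unigene9253, Unigene22991, Unigene30397, Unigene49402 and the annotations MAD2, cyclin-H1-1 and CDC27 homolog B fall outside that rule. They were chosen after their values were seen, as were those that illustrate shared matches. The members and lists were chosen with earlier results of these data known. No MELO identifier matched the RefSeq gene table used here (0 of them), so no position or sequence is given.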

Additional observations from a re-analysis of the deposited data

Results flagged for a closer look

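Unigene408 (cyclin-A3-2) differed in opposite directions between the aa and AA bulks of each labelled g background: the log2 ratio was 1.10 for hermaphrodite over monoecious and -1.05 for andromonoecious over gynoecious. Unigene48350 (KRP3) did likewise, with 1.50 and -1.54. The difference was not tested, since each ratio rests on 1 library a side, and at least 2-fold each way was asked of a member, a bound chosen after seeing the values. Under the genotypes of the other headers, the pairs are andromonoecious over monoecious and hermaphrodite over gynoecious. There Unigene408 had 0.86 and -0.81 and Unigene48350 had 0.77 and -0.81, so neither met the bound. Both members are lowest in the monoecious and highest in the gynoecious library, and the hermaphrodite library was on another flow cell.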

How the results depend on the processing

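No paired analysis was possible because each sex type has 1 library and the labels carry no replicate numbers beyond it. Of the medians and shares of the 6 pairs, the following left the 95% interval of the value reported. The share lower in hermaphrodite over monoecious was 14.5% with at least 10 reads. The share lower in andromonoecious over monoecious was 0% with at least 200 reads. The share higher in hermaphrodite over andromonoecious was 0% with at least 200 reads and 0% among members with 95% identity over 100 nt. Each share of 0% replaced a share that came from 1 member, and an interval around 1 member always leaves out 0. The intervals of shares also treat members of the same library pair as separate draws. Within their intervals, medians turned sign in gynoecious over monoecious (0.09 with library totals, 0.06 with at least 10 reads), hermaphrodite over monoecious (-0.10 with at least 200 reads) and andromonoecious over gynoecious (-0.14 with library totals, -0.05 with at least 200 reads). Shares there moved by over 1.5 times in 14 cases, such as the share higher in hermaphrodite over monoecious (33.3%) and in andromonoecious over monoecious (36.4%) among members with 95% identity over 100 nt, the share lower in hermaphrodite over andromonoecious (8.7% with library totals) and the share lower in hermaphrodite over gynoecious (12.5% with at least 10 reads). Without the length bound, an alternative added after seeing the data, none of them left its interval. Scaled to library totals, 16 of 207 single ratios changed sign (1 with DESeq2 size factors), and 3 of them had an interval that left out a ratio of 1: Unigene4112 in hermaphrodite over monoecious (0.03), Unigene30790 in hermaphrodite over andromonoecious (0.11) and Unigene32205 in andromonoecious over gynoecious (-0.00). The cause was not tested. Other single ratios left their interval with library totals but kept their sign. That of Unigene22025 in gynoecious over monoecious went from a log2 of 2.49 to 2.60.

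In the a split, limma's 6 called unigenes became 0 on TMM-scaled reads, 0 with pseudocount 0.1, 0 without the filter, 0 with edgeR and 27 with DESeq2; leaving out each library in turn gave 0 to 260, and 0 to 1 members. The called member was Unigene46209 (E2FA), without the monoecious library, with a log2 change of 2.72 and a limma adjusted p of 0.0355. In the labelled g split, 0 called became 29 with DESeq2 and 0 to 204 when a library was left out. In the male flower split, 1 called became 0 with pseudocount 0.1, 0 without the filter, 0 with edgeR and 276 with DESeq2, and 0 to 89 when a library was left out; DESeq2 called 1 member, Unigene13774, with a log2 change of 5.08. With a library left out, the lone library of a side is assumed to vary like the other side.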
